A study of Mus musculus with 6 samples.

Results

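Habenular neuron identity was examined through 8 genes, Gpr151, Pou4f1, Chrnb4, Chrna3, Chrnb3, Tac2, Nwd2 and Htr5b, out of the 21899 genes in the count table. They were chosen by name as markers of habenular neurons, with earlier results of these data known, and each symbol matched 1 gene. The libraries were made from thalamus tissue of wild-type male C57BL/6J mice, 8 to 10 weeks old at purchase. Every mouse had received a single gamma-ray dose of 50 Gy to the left thalamic region and, 2 weeks later, 2 µL of AAV9 into the thalamus. The RC group (radiation + control virus, 3 libraries) received AAV9 GFAP104::tdTomato, which encodes a red fluorescent protein, and the RN group (radiation + NeuroD1, 3 libraries) received AAV9 GFAP104::mND1-tdTomato, which adds mouse NeuroD1. The GFAP104 promoter is meant to restrict expression to astrocytes, although AAV9 also enters neurons. Tissue was taken 6 weeks after irradiation from under the hippocampus with tweezers, and the sources do not say whether it held the habenula. Unirradiated mice were not analysed here.

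The habenula is a small paired nucleus that lies above the medial thalamus, against the wall of the third ventricle and close to the choroid plexus and the ependyma. Its medial part sends axons to the interpeduncular nucleus, releases glutamate with acetylcholine or tachykinins, and is known for its dense nicotinic receptors. Its lateral part passes signals about aversive outcomes to the dopamine and serotonin neurons of the midbrain. Because the tissue was sequenced whole, fewer habenular cells and less RNA per cell cannot be told apart in these values.

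Reads counted on genes totaled between 16561663 and 18657015 per library. Values are given as raw counts or as CPM (counts scaled to library size with TMM factors). A count of 0 allows up to 3 counts, or between 0.160 and 0.179 CPM, which covers counting error only. No member had a 0 in any library. The gene carried by the RN virus, Neurod1 (ENSMUSG00000034701), had 84, 91 and 90 counts in the RC libraries against 1123, 1711 and 910 in the RN ones, in the direction of the labels. The study's text refers to the sequenced samples as mice, and the labels number them as 3 replicates per group.

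All 8 genes were detected in every library and all 8 passed the filter on low counts. None was called different between RN and RC by the study's thresholds, an adjusted p under 0.05 with a fold change of at least 2. That is 0 of 8 higher, where 0.0602% of the 14956 tested genes were called higher, and 0 of 8 lower, where 0.0134% were called lower, with the quasi-likelihood test of edgeR. DESeq2's Wald test also called 0 of 8 in either direction, against 0.655% of genes called higher and 81 of 14956 called lower. At an unadjusted p under 0.05, 2 of the 8 were higher in both tools, namely Tac2 and Nwd2, and 5.44% of all genes were higher at that level in edgeR. With the replicate numbers as a block, 6 of the 8 were higher at that level, as were 6.63% of all genes, and still 0 were called. No source used here states that the numbers mark pairs. The fitted log2 fold change was above 0 for all 8 genes, which was so for 50.8% of the tested genes, and its median was 0.47 against 0.0037 over all tested genes. The members varied together from library to library, so these 8 values are not independent of each other.

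Tac2 (ENSMUSG00000025400) encodes the precursor of neurokinin B, a tachykinin of medial habenular neurons. It lay at 20.4, 13.7 and 13.8 CPM in RC replicates 1, 2 and 3 and at 30.5, 21.4 and 25.3 CPM in RN replicates 1, 2 and 3. Every RN library was above every RC library, with RN replicate 2 only just above RC replicate 1. Tac2 was the only one of the 8 genes without overlap between the groups, while RN lay wholly above RC in 8.18% of all tested genes and wholly below in 8.12%. Mean CPM was 15.97 ± 3.8 for RC against 25.7 ± 4.58 for RN (SD, n = 3 each), which gave a log2 fold change of 0.69 with a 95% interval of 0.23 to 1.14 (SE 0.199, edgeR adjusted p = 0.208). DESeq2 gave an adjusted p of 0.0441 for a change of the same size, under the 2-fold threshold, and over all alternatives the adjusted p of Tac2 ran from 0.0441 to 0.579. Without a fold threshold DESeq2 called 1.51% of all genes higher.

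Nwd2 (ENSMUSG00000090061), which encodes a protein with NACHT and WD repeat domains, had the highest counts of the 8 genes. It lay at 46.7, 24.6 and 31.0 CPM in RC and at 68.5, 49.6 and 40.5 CPM in RN. RC replicate 1 exceeded RN replicate 3, so the groups overlapped. The means were 34.1 ± 11.4 and 52.9 ± 14.3 CPM (SD, n = 3 each), a log2 fold change of 0.63 with a 95% interval of 0.04 to 1.23 (SE 0.259, edgeR adjusted p = 0.391). The annotation GENCODE M21 lists the predicted gene Gm9954 on the opposite strand of an Nwd2 exon, and the use of strand in the counting is not given in the sources used here. No other member shared exon sequence with an annotated gene.

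Promoter sequences from RefSeq (GRCm38.p6) were examined for 5 of the 8 genes, and not for Gpr151, Chrnb3 and Htr5b. Those of Tac2 and Nwd2 are shown because these genes had the smallest p, and those of Chrna3 and Chrnb4 because they neighbour each other and had the most similar profiles. Each is the 250 bases before the start of transcription, 5′ to 3′ on the gene's strand. Capitals mark the E-boxes CAGCTG and CAGATG, motifs bound by NeuroD-family factors with their E-protein partners, searched on both strands. The windows are chr10:127724228-127724477 on the plus strand for Tac2, chr5:63648853-63649102 on the plus strand for Nwd2, chr9:55026563-55026812 on the minus strand for Chrna3 and chr9:55048545-55048794 on the minus strand for Chrnb4.
Tac2: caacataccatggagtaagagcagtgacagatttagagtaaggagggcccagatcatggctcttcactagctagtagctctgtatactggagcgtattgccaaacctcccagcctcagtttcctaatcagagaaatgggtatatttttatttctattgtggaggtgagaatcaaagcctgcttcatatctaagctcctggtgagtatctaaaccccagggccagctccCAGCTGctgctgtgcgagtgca
Nwd2: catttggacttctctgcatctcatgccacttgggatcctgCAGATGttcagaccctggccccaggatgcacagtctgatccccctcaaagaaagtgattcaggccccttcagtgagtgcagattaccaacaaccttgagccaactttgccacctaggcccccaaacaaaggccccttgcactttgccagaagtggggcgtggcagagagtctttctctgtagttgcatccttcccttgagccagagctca
Chrna3: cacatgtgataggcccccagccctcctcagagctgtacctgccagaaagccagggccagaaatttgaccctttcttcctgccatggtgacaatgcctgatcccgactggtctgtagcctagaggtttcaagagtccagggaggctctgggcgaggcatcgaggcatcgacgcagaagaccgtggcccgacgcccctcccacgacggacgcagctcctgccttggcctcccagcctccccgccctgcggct
Chrnb4: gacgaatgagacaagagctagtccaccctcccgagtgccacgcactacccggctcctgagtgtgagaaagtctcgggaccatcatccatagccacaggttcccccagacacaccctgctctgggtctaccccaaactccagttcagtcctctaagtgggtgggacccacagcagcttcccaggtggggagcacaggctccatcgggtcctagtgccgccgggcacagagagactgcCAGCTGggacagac

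The Tac2 window held 1 CAGCTG, as did those of Chrnb4 and Pou4f1. The Nwd2 window held 1 CAGATG and the Chrna3 window neither motif. Among all 32851 promoter entries of the same length, 13.0% held CAGCTG and 14.4% held CAGATG. The letters ATTAAT, found within sites of POU4F1, occurred in none of the 5 windows and in 4.39% of all entries. GC content was 47.2% for Tac2, 53.6% for Nwd2, 63.2% for Chrna3, 61.2% for Chrnb4 and 78.0% for Pou4f1, with a median of 52.4% over all entries. These matches are descriptions of the letters only.

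**Figure D1:**
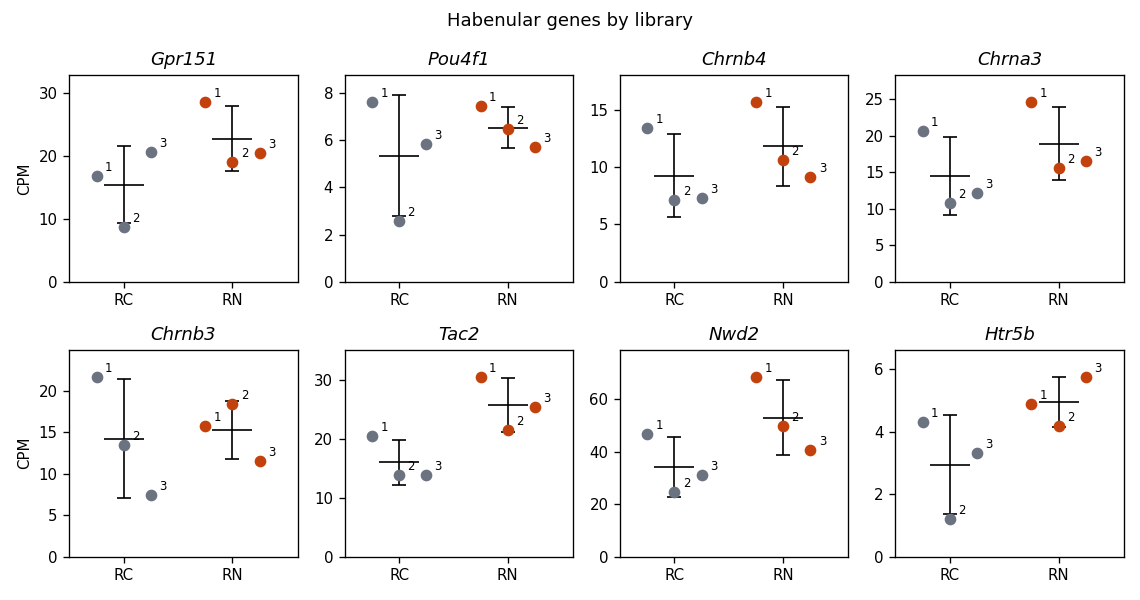
CPM of the 8 habenular genes in each library, with RC (radiation + control virus) in gray and RN (radiation + NeuroD1) in orange. Numbers beside points are replicate numbers, and the black bar and whiskers are the group mean ± SD (n = 3). Only Tac2 has all RN points above all RC points, and RC replicate 2 is the lowest library for 7 of the 8 genes.

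Pou4f1 (ENSMUSG00000048349), also called Brn3a, is the transcription factor that maintains habenular neuron identity. Its CPM was 7.63, 2.57 and 5.84 in RC and 7.44, 6.47 and 5.70 in RN. RC replicate 1 was the highest of all 6 libraries and RC replicate 2 the lowest, so both extremes lay in RC. The log2 fold change was 0.29 with a 95% interval of -0.53 to 1.10 (edgeR adjusted p = 0.840), and without RC replicate 2 it was -0.044. The other class IV POU genes were near the floor, with 0 to 8 counts of Pou4f2 and 0 to 6 of Pou4f3 per library, and neither was tested.

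Gpr151 (ENSMUSG00000042816) encodes an orphan receptor found on the axons of habenular neurons. It lay at 16.9, 8.78 and 20.7 CPM in RC and at 28.7, 19.1 and 20.5 CPM in RN. RC replicate 3 lay above RN replicates 2 and 3, and only RN replicate 1 stood above all RC libraries. The log2 fold change was 0.56 with a 95% interval of -0.13 to 1.24 (edgeR adjusted p = 0.543), and 0.28 without RC replicate 2.

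Htr5b (ENSMUSG00000050534), a serotonin receptor that is functional in rodents, was the scarcest of the 8 genes by count, with 77, 20 and 58 counts in the RC libraries against 82, 78 and 103 in the RN ones. The 20 counts of RC replicate 2 have an exact Poisson 95% interval of 12.2 to 30.9, below the interval of every other library, the lowest of which starts at 44.0. RN replicate 2, at 4.17 CPM, lay just below RC replicate 1, at 4.32 CPM. Its log2 fold change of 0.74 was the largest of the 8 and also the least precise, with a 95% interval of -0.21 to 1.69 (edgeR adjusted p = 0.562), and it was 0.37 without RC replicate 2. Of the 14 serotonin receptor genes, 13 were tested and 0 were called in edgeR, with 2 higher at an unadjusted p under 0.05 (Htr2b and Htr1b). DESeq2 called 1, Htr2b, with 23, 15 and 22 counts in the RC libraries against 68, 132 and 72 in the RN ones. The edgeR log2 fold change of Htr2b was 2.13 (SE 0.331, edgeR adjusted p = 0.0666).

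Nicotinic receptors are pentamers, and medial habenular neurons are known for receptors that join the α3 and β4 subunits. Chrna3 (ENSMUSG00000032303) lay at 20.6, 10.8 and 12.1 CPM in RC and at 24.6, 15.6 and 16.5 CPM in RN. Chrnb4 (ENSMUSG00000035200) lay at 13.4, 7.11 and 7.27 CPM in RC and at 15.7, 10.6 and 9.11 CPM in RN. For both genes RC replicate 1 was the second highest library, after RN replicate 1, and above the other RN libraries. The log2 fold change was 0.38 for Chrna3 with a 95% interval of -0.25 to 1.02 (edgeR adjusted p = 0.684) and 0.35 for Chrnb4 with a 95% interval of -0.34 to 1.04 (adjusted p = 0.744). Without RC replicate 1 they were 0.73 for Chrna3 and 0.71 for Chrnb4, and without RN replicate 1 they were 0.15 and 0.092. The ratio of Chrna3 to Chrnb4 counts stayed between 1.47 and 1.81 in all 6 libraries, while the counts of each gene ranged from 180 to 414 and from 119 to 264. Chrna5, Chrna3 and Chrnb4 lie next to each other in the RefSeq annotation.

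Chrnb3 (ENSMUSG00000031492), which encodes the β3 subunit, had another profile. It lay at 21.7, 13.4 and 7.45 CPM in RC and at 15.8, 18.4 and 11.5 CPM in RN, so the highest and the lowest library were both RC. RC replicate 3 was the lowest, where for the other 7 genes it was RC replicate 2. The log2 fold change was 0.10 with a 95% interval of -0.71 to 0.91 (edgeR adjusted p = 0.957), and it was -0.21 without RC replicate 3 and -0.069 without RN replicate 2. The ratio of Gpr151 to Chrnb3 counts ran from 0.653 in RC replicate 2 to 2.78 in RC replicate 3, a 4.26-fold range, against a 1.23-fold range for Chrna3 over Chrnb4.

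The profile of Chrnb3 resembled that of Chrna6, its neighbor in the annotation, which encodes the α6 subunit, known from midbrain dopamine neurons and the medial habenula. Chrna6 had 534, 301 and 28 counts in the RC libraries against 224, 411 and 181 in the RN ones, and Chrna5 had 52, 21 and 2 in RC libraries against 24, 33 and 18 in RN ones. RC replicate 3 was the lowest library for both, as for Chrnb3. Over the 6 libraries the Pearson correlation of log2 CPM was 0.942 between Chrnb3 and Chrna6, 0.963 between Chrnb3 and Chrna5, and 0.577 between Chrnb3 and Chrna3 (n = 6 libraries that share depth and tissue, given as a description).

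**Figure D2:**
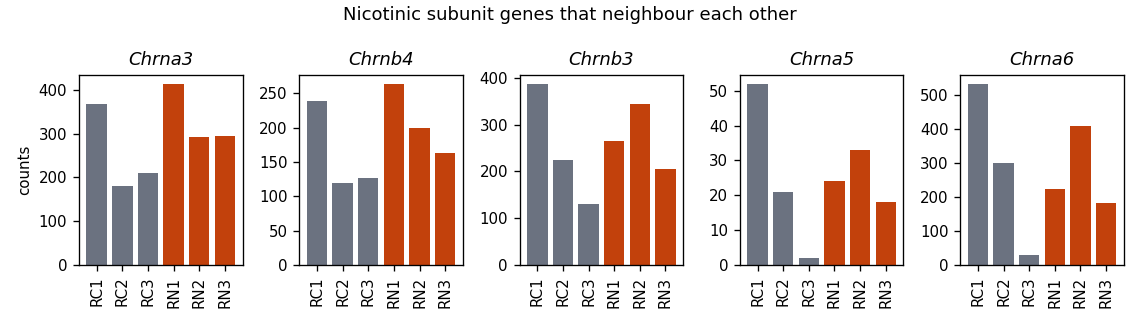
Counts of 5 nicotinic subunit genes in each library (bars start at 0), with RC in gray and RN in orange. Chrna3 and Chrnb4 rank the libraries much alike, and Chrnb3, Chrna5 and Chrna6 are lowest in RC replicate 3, where Chrna6 had 28 counts and Chrna5 had 2.

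Dopamine neuron genes, a list added after these values were seen, were lowest in RC replicate 3 for 7 of 8 genes, the exception being Aldh1a1, which was lowest in RN replicate 1. Slc6a3, the dopamine transporter, had 3411, 2446 and 35 counts in the RC libraries against 1044, 2387 and 1483 in the RN ones. Th, the rate-limiting enzyme of dopamine synthesis, had 1879, 1167 and 224 counts in the RC libraries against 1110, 1732 and 1242 in the RN ones. RC replicate 3 was thus far below the other libraries for both genes. The correlation of Chrnb3 with the mean centred log2 CPM of the 8 dopamine neuron genes was 0.912 over the 6 libraries, and those of the 7 other members lay between -0.335 and 0.459. All 8 dopamine neuron genes were tested and edgeR and DESeq2 called 0, with 1 lower at an unadjusted p under 0.05 (Aldh1a1). The part of dopamine neuron transcripts in the counts of Chrnb3 was not tested.

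Of the 16 nicotinic subunit genes, 10 were tested and 0 were called by edgeR or DESeq2. The median log2 fold change was 0.033, and 5 of the 10 were above 0. Chrna4, the main partner of β2 in the brain, was lower at an unadjusted p under 0.05, with a log2 fold change of -0.33 (SE 0.121, edgeR adjusted p = 0.325) and overlapping groups. Chrnd and Chrne, subunits of the muscle receptor, had 0 counts in every library, which allows up to 3 counts in each.

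Of the 6 tachykinin and tachykinin receptor genes, 4 were tested and 0 were called by edgeR or DESeq2. Tac2 was the only one with an unadjusted p under 0.05. Tacr3, the receptor of neurokinin B, had 330, 104 and 149 counts in the RC libraries against 255, 222 and 312 in the RN ones. RC replicate 2 was again the lowest and RC replicate 1 the highest. Tac1, the substance P precursor and the other tachykinin of the medial habenula, had 399, 475 and 712 counts in the RC libraries against 650, 497 and 1277 in the RN ones, with RN replicate 3 far above the rest. Its log2 fold change was 0.58 (SE 0.355, edgeR adjusted p = 0.607).

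**Figure D3:**
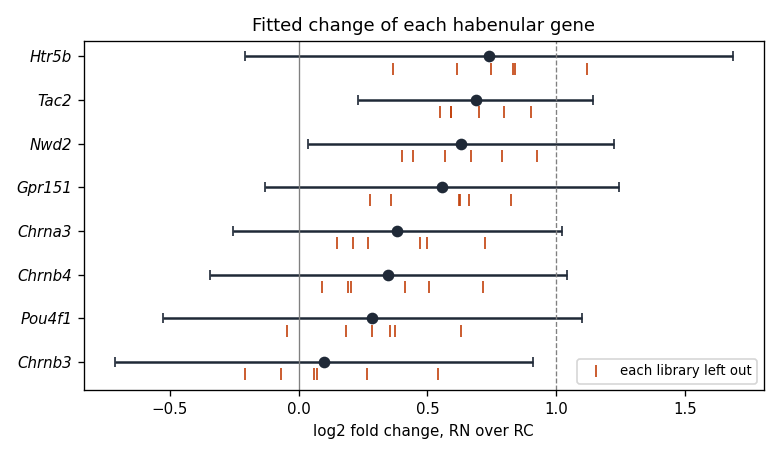
Fitted log2 fold change of RN over RC for each of the 8 genes with its 95% interval (black), and the values with each library left out in turn (orange ticks). The solid line marks no change and the dashed line a 2-fold change. The intervals of Tac2 and Nwd2 lie above 0, and every interval except that of Chrnb3 reaches past the 2-fold line.

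Levels of different genes can be set side by side only per length, here as CPM per kb of exon in GENCODE M21. In RC, Tac2 was the highest at 11.6 ± 2.76 and Gpr151 next at 8.73 ± 3.44 CPM per kb (SD, n = 3 each). Nwd2, Chrna3, Chrnb4 and Chrnb3 followed at 3.27 ± 1.09, 2.75 ± 1.01, 2.49 ± 0.963 and 2.23 ± 1.12, and these neighbors in the order did not differ beyond their SDs. Htr5b and Pou4f1 were lowest at 1.52 ± 0.825 and 1.14 ± 0.549. The order in RN differed in that Htr5b, at 2.55 ± 0.411, stood just above Chrnb3, at 2.39 ± 0.549, within their SDs.

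The 8 genes varied together over the libraries, and the groups overlapped in their mean. Their mean centred log2 CPM was 0.28, -0.75 and -0.32 in RC replicates 1, 2 and 3 and 0.53, 0.16 and 0.10 in RN replicates 1, 2 and 3. RC replicate 1 thus lay above RN replicates 2 and 3, and RC replicate 2 was the lowest library for 7 genes. For Tac2 (230 against 241 counts) and Chrnb4 (119 against 127 counts) it was only just below RC replicate 3. RN replicate 1 was the highest library for 5 genes, RC replicate 1 for 2 and RN replicate 3 for 1. The RN mean exceeded the RC mean by 0.53 log2 units, and by 0.29 without RC replicate 2. The median of the 8 fitted log2 fold changes was 0.24 without that library, 0.72 without RC replicate 1 and 0.27 without RN replicate 1, against 0.47 with all libraries.

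Among the 28 pairs of the 8 genes, the Pearson correlation over the 6 libraries had a median of 0.755 and was above 0.5 in 24 pairs. In the 21 pairs without Chrnb3 it lay between 0.602 and 0.972. The lowest value, -0.0567, was that of Gpr151 with Chrnb3. With each group centred on its own mean, the median was 0.642 and 22 pairs were above 0.5. Each point of these correlations is a library that shares its depth and its dissection across all genes.

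Outside the 8 genes, the tested genes most like their mean profile over the 6 libraries were Ankrd17, Trmt10a, Sema4a, Gm3095, Zfp442, Ocrl, Tnf and Dscam, with Pearson correlations from 0.997 down to 0.991. With 6 libraries, 312 of the 14948 other tested genes had a correlation above 0.9, so these 8 stood little apart. Dscam, a neuronal adhesion molecule, had 1357, 944 and 1127 counts in the RC libraries against 1411, 1350 and 1341 in the RN ones. Like the mean profile, it was highest in RN replicate 1 and lowest in RC replicate 2. Tnf, a cytokine, had 2 counts in RC replicate 2 and at most 27 elsewhere.

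Other genes known in the medial habenula did not all share this profile. Of 18 such genes, all were tested and 0 were called by edgeR or DESeq2, and 13 were above 0 with a median log2 fold change of 0.21. They summed to between 932 and 1047 CPM in RC and between 835.5 and 999 CPM in RN. The most abundant of them averaged 290 CPM in RC and 244 CPM in RN, so abundant genes weigh most in these sums. Lrrc55, an auxiliary subunit of BK potassium channels, had 1166, 600 and 889 counts in the RC libraries against 1461, 1261 and 1341 in the RN ones. All RN libraries were above all RC libraries, and RC replicate 2 was the lowest, as for most of the 8. Its log2 fold change was 0.59 (SE 0.203, edgeR adjusted p = 0.294), and it was the only gene of this list with an unadjusted p under 0.05.

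The cholinergic genes of this list, named after their values were seen, differed from most of the 8 genes in their highest library. Chat, which makes acetylcholine, had 36, 107 and 125 counts in the RC libraries against 88, 79 and 282 in the RN ones, and its vesicular transporter Slc18a3 had 24, 87 and 101 in RC libraries against 75, 77 and 169 in RN ones. Both were lowest in RC replicate 1 and highest in RN replicate 3. Slc5a7, the choline transporter, had 147, 95 and 238 in RC libraries against 179, 136 and 513 in RN ones, also highest in RN replicate 3 but lowest in RC replicate 2, as 7 of the 8 genes were. Lhx8, a transcription factor of forebrain cholinergic neurons, had 8, 52 and 41 counts in the RC libraries against 53, 21 and 205 in the RN ones, also lowest in RC replicate 1 and highest in RN replicate 3. The rest of the forebrain cholinergic list was mixed. Gbx1 was highest in RN replicate 3 and lowest in RN replicate 2, while Zic4 and Zic5 were lowest in RC replicate 2 and highest in RN replicate 1 and RC replicate 3, respectively. The 4 forebrain cholinergic genes summed to between 22.6 and 33.6 CPM in RC and between 26.1 and 37.3 in RN, all 4 were tested, and 0 were called by either tool or had an unadjusted p under 0.05. Their part in the counts of Chat was not tested.

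Of 10 genes known in the lateral habenula, all were tested and 0 were called by edgeR. DESeq2 called 2 higher, Peg10 and Vgf, against 0.655% of all genes. Their sum was 1076 to 1252 CPM in RC and 1392 to 1644 CPM in RN. Peg10, Vgf and Parm1 had all RN libraries above all RC libraries and an unadjusted p under 0.05 in edgeR. Of all tested genes, 8.18% had the former and 5.44% were higher at that p. Vgf, a secreted neuropeptide precursor made by many neurons, had 1934, 2080 and 2359 counts in the RC libraries against 3304, 5480 and 5677 in the RN ones, so its fitted log2 change was 1.13 (SE 0.177, edgeR adjusted p = 0.0666). Peg10, a gene of retrotransposon origin, had 1663, 1045 and 1050 counts in the RC libraries against 2899, 2343 and 4144 in the RN ones, so its fitted log2 change was 1.29 (SE 0.245, edgeR adjusted p = 0.0986). Neither is restricted to the habenula. Gap43, a growth cone protein, followed the 8 genes more closely, with 4861, 3463 and 4412 counts in the RC libraries against 5467, 4824 and 5273 in the RN ones. Its groups did overlap, since RC replicate 1 was above RN replicate 2 in CPM, and its log2 fold change was 0.26 (SE 0.127, edgeR adjusted p = 0.489).

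Markers of the tissues around the habenula differed between the libraries as well. The 12 choroid plexus genes, all tested, summed to 2818, 8550 and 336 CPM in RC and to 77.5, 110.1 and 158 CPM in RN. RC replicate 2, the lowest library for 7 habenular genes, was the highest for the choroid plexus, and RC replicate 1 was the second highest for both. Over the 6 libraries the correlation with the choroid plexus score was -0.890 for Gpr151, -0.777 for Htr5b and 0.202 for Chrnb3, with the other members between these. All 12 had a log2 fold change below 0 (median -3.67), edgeR called 0 with 11 lower at an unadjusted p under 0.05, and DESeq2 called 9 lower. Over all 14956 tested genes, 1761 had an unadjusted p under 0.05 in either direction in edgeR, and DESeq2 called 81 lower. With a covariate for the choroid plexus score in edgeR, the log2 fold change of Gpr151 went to -0.23 (SE 0.327) and that of Pou4f1 to -0.31 (SE 0.554). That of Htr5b went from 0.74 to 0.12 (SE 0.667) and that of Chrnb3 from 0.10 to 0.89 (SE 0.576). That of Tac2 was 0.75 (SE 0.358, edgeR adjusted p = 0.579). Every RC library had a higher choroid plexus score than every RN library. With 6 libraries, the fit can therefore hardly separate this score from the group. The 10 genes of the ependyma and subcommissural organ, all tested, summed to between 140.8 and 175 CPM in RC and between 65.0 and 97.6 CPM in RN. RN lay wholly below RC in 9 of the 10, as it did in 8.12% of all tested genes. EdgeR called 0 with 8 lower at an unadjusted p under 0.05, and DESeq2 called Sspo and Dynlrb2 lower.

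The 14 thalamic genes, all tested, summed to between 1085 and 2248 CPM in RC and between 778 and 1520 CPM in RN. Without another tissue beside them, these sums cannot show what the dissection held. All 14 had a log2 fold change below 0 (median -0.56), from -1.13 to a value close to no change, -0.034. All 8 habenular genes were above 0, as were 50.8% of all tested genes. EdgeR called 0 of them, with Tnnt1 and Ramp3 lower at an unadjusted p under 0.05, and DESeq2 called Tnnt1. RC replicate 3 had the highest thalamic score and RN replicate 3 the lowest. Hypothalamic genes went the other way, with 13 of 15 tested, all 13 above 0 (median 1.71) and a sum of 38.7 to 231.9 CPM in RC and 315 to 483 CPM in RN. EdgeR called 0, with 10 higher at an unadjusted p under 0.05, where 5.44% of all tested genes were. DESeq2 called 5 higher, against 0.655% of all genes. Over the 6 libraries the correlation of Tac2 with the hypothalamic score was 0.839, and those of the other members lay between 0.321 and 0.746. Its correlation with the score of the lateral habenular genes was 0.947. The part of hypothalamic transcripts in the counts of Tac2 was not tested. The 10 hippocampal genes, 8 of them tested, summed to between 201 and 248 CPM in RC and between 239 and 347 CPM in RN. Neither tool called any, and C1ql2 and Fibcd1 were higher at an unadjusted p under 0.05.

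The 12 pan-neuronal genes, all tested, were close between the groups, with sums of 4580 to 5617 CPM in RC and 5290 to 5599 CPM in RN. Neither tool called any, and none had an unadjusted p under 0.05. All 12 had a log2 fold change above 0 (median 0.096), as did all 8 habenular genes and 50.8% of all tested genes. RC replicate 2 was the lowest library for this score, at -0.19, as it was for the habenular genes. With the pan-neuronal score as a covariate, Tac2 kept a log2 fold change of 0.66 (edgeR adjusted p = 0.394), Gpr151 went from 0.56 to 0.13 and Pou4f1 to -0.026. The part of the dissected tissue in the habenular values was not tested.

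**Figure D4:**
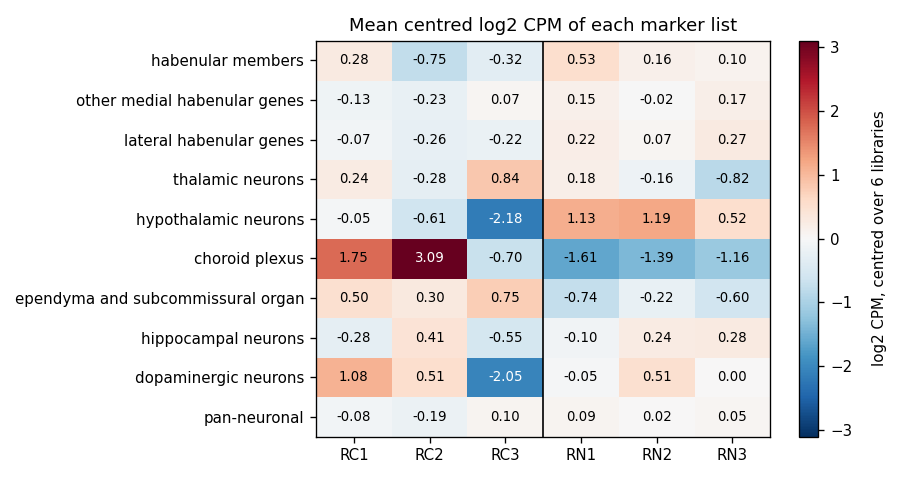
Mean centred log2 CPM of each marker list (rows) in each library (columns), where 0 is the mean of the 6 libraries, red is higher and blue lower. The habenular genes run from -0.75 in RC replicate 2 to 0.53 in RN replicate 1, while choroid plexus genes span -1.61 to 3.09 and hypothalamic genes are at -2.18 in RC replicate 3.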

How the data were processed

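Bulk RNA of thalamus tissue in 3 RC and 3 RN libraries was sequenced on an Illumina NovaSeq after preparation with the NEBNext Ultra RNA kit. The table deposited by the authors holds raw counts of reads for each gene, with 1 column per library. The submitters' processing notes list fastp 0.18.0, FastQC, HISAT2, RSEM 1.2.19 and the build GRCm39. The annotation, the use of strand and the treatment of shared reads are not given in the sources used here. The only coordinates printed are those of the RefSeq promoter windows on GRCm38.p6, which were not joined to the counts by position. Groups and replicate numbers came from the sample titles.

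From the counts, edgeR 4.0.16 (R 4.3.3) removed genes of low count (filterByExpr, minimum count 10), applied TMM and fitted its quasi-likelihood test (legacy option) with group as the only term. P-values were adjusted by Benjamini-Hochberg across the tested genes. Log2 CPM used a prior count of 2. The scripts were tested on simulated data. DESeq2 1.42.0, which the study used, was an alternative. Intervals are 95% intervals of the fit. The 8 genes and the marker lists were chosen with earlier results of these data known. The list of dopamine neuron genes, the edgeR fit without its legacy option, and the genes named as such were chosen after seeing the data. From each list, up to 4 genes of smallest p could be named, as could all tested nicotinic, tachykinin, serotonin receptor and class IV POU genes. The mean profile that named the 8 most similar genes was the mean centred log2 CPM. All 152 entries of the lists other than that of dopamine neuron genes matched a symbol, as did the 8 genes of that list.

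RC and RN share replicate numbers. Deviations from the group means correlated between libraries of like number, at 0.173, 0.120 and 0.209 for replicates 1, 2 and 3, so the numbers were treated as pairs in the blocked fit. RC replicate 1 and RN replicate 2 also correlated, at 0.156, above the 0.120 of replicate 2. These correlations come from the same counts as the fit, so they cannot show that the numbers mark pairs. No source used here ties a number to a litter or a day.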

Additional observations from a re-analysis of the deposited data

How the results depend on the processing

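In every alternative, including DESeq2, DESeq2's size factors, a filter of 10 counts in each library or none at all, the covariates and each library left out, 0 of the 8 genes were called at a 2-fold threshold in either direction. Without a fold threshold, edgeR also called 0 and DESeq2 only Tac2. With the replicate block, a pairing that no source states, Tac2 had a log2 fold change of 0.70 (edgeR adjusted p = 0.0963), Nwd2 0.65 (0.120) and Chrna3 0.41 (0.230). In that fit 6 of the 8 had an unadjusted p under 0.05 against 2 without the block, and no call changed. With each library left out, Pou4f1 ran from -0.044 (without RC replicate 2) to 0.63 and Chrnb3 from -0.21 (without RC replicate 3) to 0.54, with -0.069 without RN replicate 2. The direction also turned for Gpr151 (-0.23) and Pou4f1 (-0.31) with the choroid plexus score and for Pou4f1 (-0.026) with the pan-neuronal score, and the cause was not tested. In the same fits, Tac2 stayed between 0.55 and 0.90 and Nwd2 between 0.40 and 0.93. The edgeR fit without its legacy option, added after the data were seen, gave 0.69 for Tac2. Over all genes, edgeR called 9 higher and 2 lower, and DESeq2 98 and 81. EdgeR called 36 and 7 with no low-count filter, 17 and 5 with the block, 0 and 1 with the choroid plexus score, and 18 and 8 with the pan-neuronal score. The study, with DESeq2 and the same thresholds, reported more genes than these in each direction. With 3 libraries per group the interval of every gene except Chrnb3 includes a 2-fold difference, so such a difference could not be told from none for 5 of the 8.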
